A study of Homo sapiens with 14 samples.

Results

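RNA abundance was compared between HEK 293 cells in which CFIm25 was knocked down and HEK 293 cells in which CFIm25 was overexpressed. HEK 293 is an established line from human embryonic kidney. The comparison takes the 2 libraries with the genotype label CFIm25 knockdown and the 3 with the label CFIm25 overexpression, 5 of the 14 libraries of the series, and every gene that passed a filter on low counts, 12080 of the 18006 in the count table. The other 9 libraries are 3 wild type controls, 3 with CFIm68 knockdown and 3 with CFIm68 overexpression. They entered the model that estimates the spread between libraries, and they are printed only where a value is set beside them. Knockdown was by siRNA delivered with Lipofectamine RNAiMAX. How the overexpression was delivered, whether those cells were a pool or 1 clone, and whether they or the controls received lipid or a control siRNA were left unstated in the labels. Any effect of delivery or of clone selection therefore cannot be told apart from the difference in CFIm25. Nothing states that the libraries of a group came from separate cultures. The p-values weigh a difference between groups against the spread between libraries within groups, and that spread may be only technical.

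Cleavage factor Im is a complex of 2 kinds of subunit: CFIm25, encoded by NUDT21, which binds UGUA motifs in the pre-mRNA upstream of a poly(A) site, and a larger partner, CFIm68 (CPSF6) or CFIm59 (CPSF7). The complex helps to recruit the cleavage and polyadenylation machinery. Many genes have several poly(A) sites in the last exon, and loss of CFIm25 or CFIm68 is known to shift their use towards the proximal site, which shortens the 3′ UTR and can remove microRNA sites and other elements that lower RNA stability. Counts per gene measure total RNA and not the choice of poly(A) site, so what follows concerns abundance only. Setting knockdown directly against overexpression compares the lowest with the highest CFIm25 level of the series without using the control libraries.

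Total counts were 22464083 and 33895308 in the knockdown libraries and 23125253, 17113629 and 16437307 in the overexpression libraries. Across the tested genes log2 CPM (read counts scaled to a common library size, with TMM factors for composition) correlated at r = 0.997 between the knockdown libraries, at 0.994 to 0.995 among the overexpression libraries and at 0.975 to 0.979 between the groups. Libraries of 1 group differed by more than sampling noise, with a chi-square per degree of freedom of 4.38 to 9.08, so no 2 of them looked like 1 library deposited under separate names.

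NUDT21, the targeted gene, stood at 54.6 and 52.9 CPM in knockdown and at 782, 734 and 671 CPM in overexpression. The controls lay between, at 537, 500.4 and 505 CPM. The knockdown level was 13.6-fold below the overexpression level, a log2 difference of -3.76 ± 0.08 (SE; edgeR quasi-likelihood test, Benjamini-Hochberg adjusted p = 1.24e-26). Throughout, a log2 difference is knockdown minus overexpression, so that a positive value means higher in knockdown. Set against the controls, which both values share, most of that span was on the knockdown side: -3.26 for knockdown minus control and 0.50 for overexpression minus control. The counts do not separate the resident NUDT21 from an introduced copy.

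The partner subunits moved in different directions. CPSF6, which encodes CFIm68, had 526 and 540.3 CPM in knockdown and 263, 256 and 237 CPM in overexpression, with no overlap, a log2 difference of 1.08 ± 0.05 (adjusted p = 1.27e-16). CPSF7, which encodes CFIm59, had 201 and 208 CPM in knockdown and 277, 253 and 283 CPM in overexpression, a difference of -0.41 ± 0.06 (adjusted p = 3.65e-07). For both partners the overexpression libraries lay close to the controls, which had 274, 262 and 268 CPM of CPSF6 and 265, 272 and 282 CPM of CPSF7. The CPSF6 locus shares exonic bases with a gene on the opposite strand, and the labels leave the strand setting of the counting unstated. The same holds for others of the 55 named genes with such an overlap. FLNC, STAT6, OPN3, CDH23, MFSD8, DICER1 and LIN28B, described further on, are among them.

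**Figure D1:**
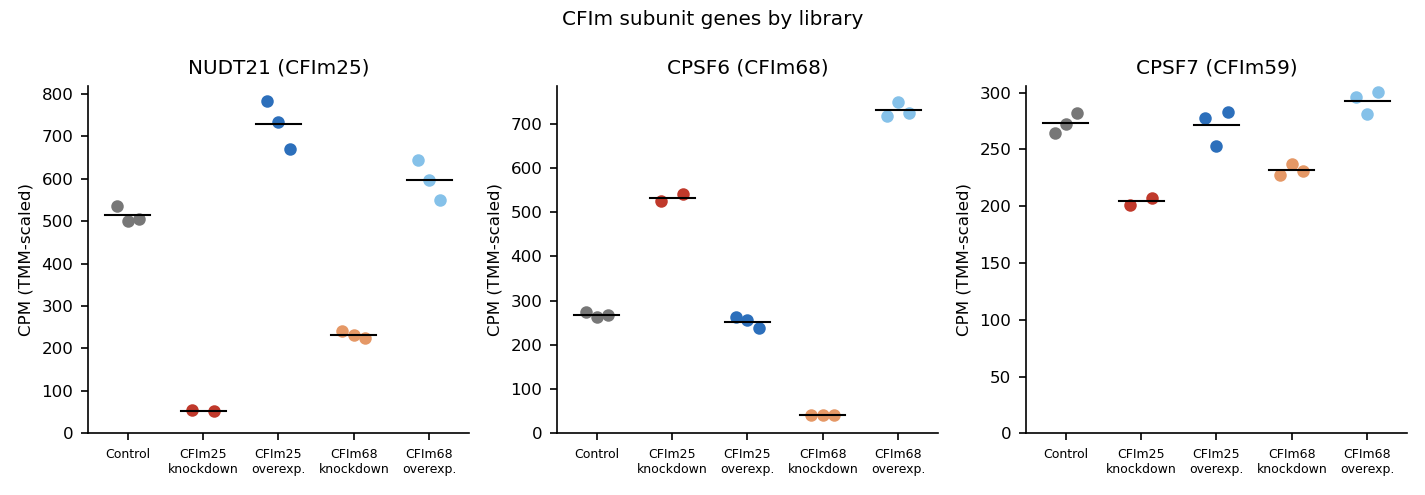
CPM (TMM-scaled, linear axis from 0) of NUDT21, CPSF6 and CPSF7 in each library of the 5 groups. Points are libraries and horizontal lines are group means. NUDT21 lies at 54.6 and 52.9 in the CFIm25 knockdown libraries and at 782, 734 and 671 in the CFIm25 overexpression libraries, and CPSF6 is higher in CFIm25 knockdown than in control or CFIm25 overexpression.

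Over all tested genes, 6779 (56.1%) passed an adjusted p of 0.05, of which 3456 (28.6% of those tested) were higher in knockdown and 3323 (27.5%) were lower. These shares are the background against which the counts of gene groups are read. The libraries of the 2 groups did not overlap in 8156 genes (67.5%). Most differences were small: the median absolute log2 difference of the genes past the threshold was 0.43, and 67.8% of them were under 1.5-fold. At 2-fold or more, 308 genes were higher in knockdown and 443 were lower. In bulk RNA, fewer cells with a transcript and less of it per cell cannot be told apart.

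The 12 largest differences in each direction were taken from called genes whose mean over the 5 libraries reached 5 CPM and whose groups did not overlap. Several of those higher in knockdown stood well below control in overexpression. CD99, a cell surface glycoprotein of adhesion and migration, had 53.9 and 51.4 CPM in knockdown and 51.9, 58.7 and 61.0 CPM in control, but only 1, 3 and 3 reads in the 3 overexpression libraries. The pooled counts give a ratio of 417 (95% counting interval 202 to 1038), and the fitted log2 difference of 8.70 ± 0.18 rests on those few reads. GSTP1, a glutathione transferase that detoxifies electrophiles, had 64.2 and 63.6 CPM in knockdown and 7.12, 7.92 and 7.65 CPM in overexpression (3.08 ± 0.08, adjusted p = 2.32e-24). STAT6, the transcription factor of interleukin-4 signalling, had 19.02 and 20.4 CPM against 3.43, 3.22 and 3.01 CPM (2.61 ± 0.11, adjusted p = 9.93e-18). Of these 3 groups both were highest in the controls, with 123, 119.8 and 136 CPM of GSTP1 and 41.4, 42.0 and 45.5 CPM of STAT6, so that they were below control in knockdown as well as in overexpression.

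FLNC, an actin cross-linking filamin, had 31.3 and 34.9 CPM in knockdown and 3.56, 6.17 and 4.52 CPM in overexpression (2.83 ± 0.12). CNTN1, a neuronal adhesion molecule, had 33.6 and 30.8 against 9.52, 7.69 and 8.64 CPM (1.89 ± 0.09), and RBP7, a retinol-binding protein, 26.4 and 25.2 against 8.66, 8.09 and 6.78 CPM (1.70 ± 0.10). In CNTN1 and RBP7 the knockdown values were near the control means of 31.1 and 28.3 CPM. FLNC, with a control mean of 27.2 CPM, was somewhat above control in knockdown (0.29, edgeR quasi-likelihood test, adjusted p = 0.0171). In these 3 genes the overexpression values lay below the control means. GALNT5, an enzyme that starts mucin-type O-glycosylation, had 11.8 and 14.3 against 4.29, 3.79 and 3.71 CPM (1.74 ± 0.13), and TMSB4X, the actin monomer-binding thymosin beta 4, 32.4 and 29.4 against 9.52, 9.33 and 10.7 CPM (1.65 ± 0.09). Their controls, at means of 9.42 and 19.003 CPM, fell between the groups. VMA21, MT2A and INSIG1 complete this set with OPN3, an opsin, at 19.6 and 17.9 against 4.85, 5.88 and 3.42 CPM (1.98 ± 0.12), whose exons overlap those of another gene on the same strand. Adjusted p-values of these 12 genes were 1.39e-07 or smaller.

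At the other end, besides NUDT21, stood genes that were at their highest under overexpression. TPTE, a testis-expressed phosphatase-like membrane protein, had 4 and 11 reads in the knockdown libraries, 1 read in each control and 11.02, 8.71 and 10.3 CPM in overexpression. The pooled ratio of overexpression to knockdown was 39.0 (95% counting interval 23.5 to 70.2). TPTE has a close paralog, TPTE2, and shares exonic bases with another gene on its strand, so the gene of origin of these reads is uncertain. SHC3, a neuronal adaptor of receptor tyrosine kinases, had 0.863 and 0.839 CPM in knockdown and 9.87, 7.58 and 10.5 CPM in overexpression (-3.45 ± 0.22, adjusted p = 6.22e-14), and its controls lay between, at 3.57, 3.82 and 5.66 CPM. CDH23, a cadherin of the inner ear hair bundle, had 1.04 and 0.779 against 7.51, 8.03 and 9.68 CPM (-3.23 ± 0.22, adjusted p = 1.62e-13), with controls of 2.04, 2.73 and 2.16 CPM.

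In a second set the control lay closer to overexpression than to knockdown. HNRNPLL, a splicing regulator of the HNRNPL family, had 6.76 and 8.36 CPM in knockdown and 31.2, 28.8 and 32.9 CPM in overexpression (-2.01 ± 0.11, adjusted p = 1.84e-15), with controls of 29.6, 24.7 and 27.2 CPM. MFSD8, a lysosomal membrane protein, had 2.36 and 1.53 against 8.45, 7.07 and 6.43 CPM (-1.97 ± 0.21), and DPP7, a lysosomal dipeptidase, 2.77 and 2.49 against 8.62, 9.84 and 12.5 CPM (-1.97 ± 0.17). TGM1, the transglutaminase that cross-links the cornified envelope, had 1.498 and 2.07 against 8.28, 8.43 and 7.94 CPM (-2.16 ± 0.18). Control means of MFSD8, DPP7 and TGM1 were 6.43, 8.40 and 6.84 CPM, each above both knockdown libraries. The remaining log2 differences were -2.31 for PYROXD2, -2.28 for COLQ, -2.18 for CALCB and -1.93 for PRSS53, and each of these 4 overlaps a neighbour on the same strand. Their control means were 4.30, 5.95, 5.98 and 12.4 CPM. In CPM these were nearer to the knockdown mean in PYROXD2 and CALCB and nearer to the overexpression mean in COLQ and PRSS53. On the log2 scale the PYROXD2 control was nearer to overexpression, with -1.31 for knockdown minus control and 1.00 for overexpression minus control.

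**Figure D2:**
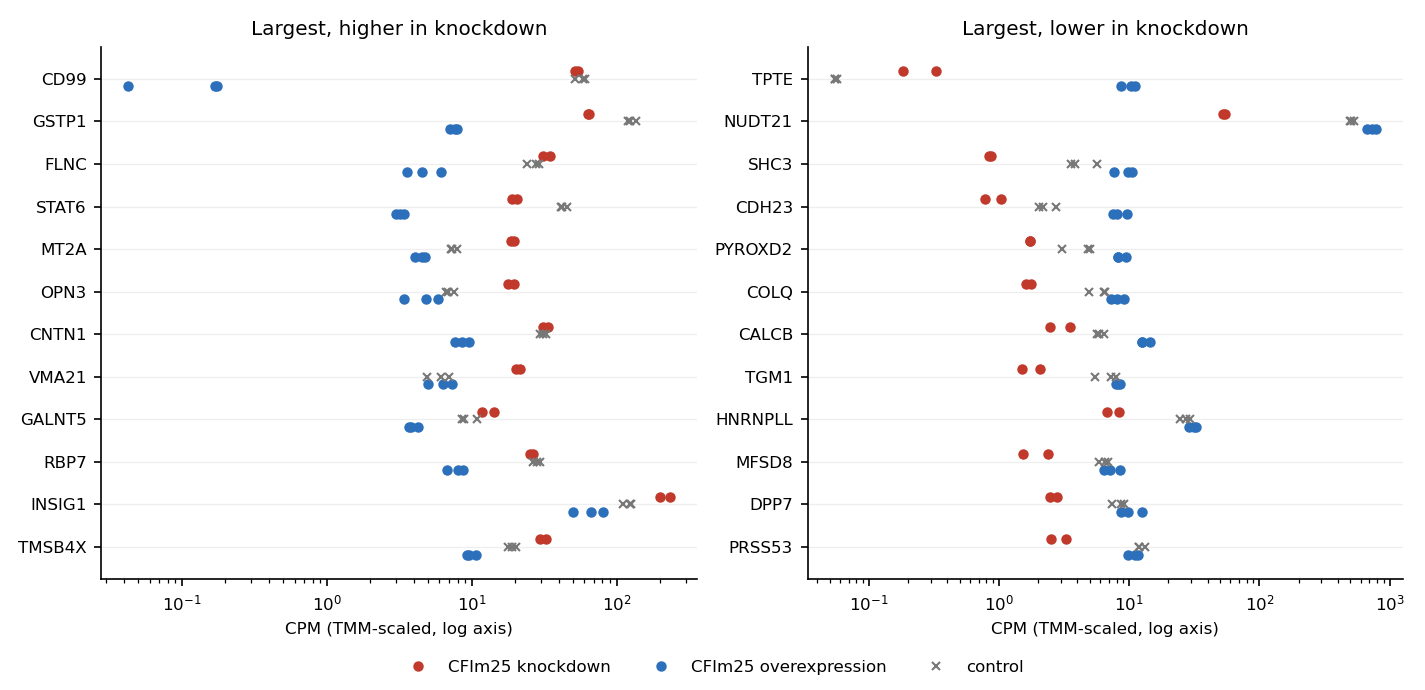
CPM (TMM-scaled, log axis) in each CFIm25 knockdown, CFIm25 overexpression and control library for the 12 genes with the largest log2 difference in each direction. Points and crosses are libraries. Genes were chosen for groups that do not overlap, and CD99 is the farthest apart, with knockdown at 53.9 and 51.4 CPM.

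Among the rest of the cleavage and polyadenylation machinery the differences were small and in both directions. Of 10 tested CPSF and CstF genes, which recognise the AAUAAA hexamer, cut the RNA and bind the downstream GU-rich element, 4 were higher and 2 lower in knockdown (median 0.11). CSTF3, the scaffold of CstF, had 23.5 and 25.1 CPM in knockdown and 18.96, 17.2 and 16.7 CPM in overexpression (0.46 ± 0.09). CSTF2, its RNA-binding subunit, had 114 and 118 against 95.9, 98.6 and 94.2 CPM (0.27 ± 0.06), and WDR33, which contacts the hexamer, 48.0 and 47.0 against 40.2, 37.0 and 37.0 CPM (0.32 ± 0.07). The WDR33 value fell to 0.09 (adjusted p = 0.268) once the median of neighbouring genes was removed. CPSF3, the endonuclease, was lower, at 216 and 212 against 259, 243 and 245 CPM (-0.22 ± 0.06). CPSF1, the largest CPSF subunit, was just past the threshold, with 308 and 312 against 257, 288 and 296 CPM, at 0.14 ± 0.06 (adjusted p = 0.0438). This small value missed the threshold under 8 other settings. After removal of neighbour medians CPSF1 passed in the other direction, at -0.20 (limma-trend, adjusted p = 0.00105). FIP1L1 passed with 3.81 and 5.15 against 5.79, 5.6001 and 6.14 CPM (-0.35 ± 0.15, adjusted p = 0.0391), and missed the threshold under 5 alternatives, with -0.18 (adjusted p = 0.376) without knockdown replicate 1. CPSF1 and FIP1L1 are among 22 named genes whose exons overlap those of a same-strand neighbour, which leaves the gene of origin of some reads uncertain. The others described further on are PABPN1, DGCR8, AGO2, BTG1, CCND2, PSENEN, TGFB2, AJUBA, PHLDA3, SYNCRIP, FEN1, MT1X, COL3A1 and ZNF780A.

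In the group of CFIIm, poly(A) polymerases and termination factors, 5 of 12 tested genes were higher and 2 lower (median 0.10). SSU72, a phosphatase of the RNA polymerase II tail, was lower in knockdown, with 127 and 129 against 177, 191 and 181 CPM (-0.51 ± 0.06, adjusted p = 3.97e-08). PABPN1, the nuclear poly(A)-binding protein, was higher, with 269 and 259.8 against 193, 202 and 199 CPM (0.42 ± 0.05), and so was CLP1, a kinase subunit of CFIIm, with 13.5 and 12.9 against 9.57, 8.43 and 7.65 CPM (0.61 ± 0.11). The kinase CDK12, the phosphatase regulator PPP1R10 and the termination factor SCAF4 differed by 0.30, 0.25 and 0.25, and the poly(A) polymerase PAPOLG by -0.27. PAPOLG missed the threshold under 3 alternatives, with -0.17 (adjusted p = 0.142) after removal of neighbour medians. SCAF4 lies on chromosome 21, and its value changed sign, to -0.04, after removal of neighbour medians.

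Genes for which CFIm-dependent poly(A) site choice has been published formed a list of 12, of which 11 were tested. Of these, 7 were higher in knockdown and 1 was lower (median 0.33), against 28.6% and 27.5% over all genes. Such genes were put on the list for their response to CFIm, so their direction is no independent evidence. VMA21, an assembly factor of the lysosomal proton pump, had 20.3 and 21.7 CPM in knockdown and 5.02, 6.39 and 7.30 CPM in overexpression (1.78 ± 0.14, adjusted p = 1.98e-11), with no overlap. The control libraries, at 6.98, 6.12 and 4.94 CPM, lay within the overexpression range or just under it. DICER1, the RNase that cuts microRNA precursors, had 5.08 and 7.01 against 3.56, 3.05 and 2.84 CPM (0.95 ± 0.17, adjusted p = 1.80e-05). CCND1, a G1 cyclin, had 12.8 and 13.8 against 7.68, 9.28 and 8.64 CPM (0.66 ± 0.10), TIMP2, a metalloproteinase inhibitor, 34.9 and 32.8 against 20.9, 21.4 and 21.1 CPM (0.68 ± 0.08), and the kinase GSK3B 81.8 and 86.8 against 68.2, 70.5 and 62.7 CPM (0.33 ± 0.07). The proteasome subunit PSMB2 differed by 0.21, and by 0.17 (adjusted p = 0.0630) without knockdown replicate 2. PAK1, a kinase downstream of RAC and CDC42, was the member with less RNA in knockdown, at 110.1 and 106 against 159, 153 and 142 CPM (-0.48 ± 0.06, adjusted p = 8.34e-08). FHL1 and CXXC5 did not pass, with -0.07 and 0.16.

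The motif that CFIm25 reads is short, and the annotated 3′ UTRs of these genes hold it many times. It is shown here for 3 genes that were higher in knockdown (VMA21, TNRC6B and DICER1) and 1 that was lower (HNRNPLL), as the 30 bases around the TGTA that starts nearest to 50 bases before the annotated 3′ end, on the gene's strand. That copy is in capitals, and any other copy in the stretch is left in lower case. It starts 49 bases before the end in VMA21 and DICER1, 47 in HNRNPLL and 103 in TNRC6B. Coordinates are of GRCh38 with GENCODE 29 transcripts.
VMA21, chrX:151409303-151409332, plus strand: gtagcttgtaattTGTAtaaatgtaccatc
TNRC6B, chr22:40335693-40335722, plus strand: ggaaagatatgatTGTAttatgtgcaactc
DICER1, chr14:95086260-95086289, minus strand: tagttgtttttttTGTAataattgtagcca
HNRNPLL, chr2:38562008-38562037, minus strand: gaaatcccatctcTGTAtccaaatcctact
The 3′ UTR of the VMA21 transcript is 4306 bases long with 37 TGTA, that of TNRC6B 12567 bases with 71, that of DICER1 4270 bases with 26 and that of HNRNPLL 2204 bases with 24. The motif is therefore present in genes of either direction. Over the tested genes neither the number of TGTA per kilobase of 3′ UTR nor 3′ UTR length ordered the differences: Spearman's rho across genes was 0.0020 for the motif (11615 genes) and 0.0099 for the length (11918 genes). These are correlations across genes, which are not independent replicates. The share of genes past the threshold was 51.4% in the lowest of 5 equal classes of TGTA per kilobase and 59.3% in the highest, with medians of -0.01 and -0.02.

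The microRNA pathway was split by its steps. Of 15 tested processing and export genes 4 were higher in knockdown and 3 lower (median 0.05). LIN28B, which blocks let-7 maturation, had 31.5 and 34.7 CPM in knockdown and 19.4, 17.3 and 16.5 CPM in overexpression (0.90 ± 0.09, adjusted p = 2.69e-09). RAN, the GTPase of nuclear export, had 9.26 and 8.42 against 4.08, 5.43 and 5.27 CPM (0.85 ± 0.13). SRRT differed by 0.28. DROSHA and DGCR8, the subunits of the nuclear Microprocessor, were lower in knockdown, with 64.9 and 66.5 against 80.4, 79.6 and 77.2 CPM for DROSHA (-0.27 ± 0.06) and 84.1 and 75.1 against 92.2, 90.1 and 93.1 CPM for DGCR8 (-0.21 ± 0.07). The DGCR8 value no longer passed without knockdown replicate 2, at -0.13 (adjusted p = 0.245), or after removal of neighbour medians, at -0.15 (adjusted p = 0.0824). TUT4, which adds uridines to let-7 precursors, differed by -0.55 ± 0.13.

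In the silencing complex that microRNAs guide, 4 of 8 tested genes were higher and 1 lower in knockdown (median 0.29). TNRC6B, the scaffold that links Argonaute to deadenylases, had 48.2 and 55.5 CPM in knockdown and 18.2, 16.0 and 17.9 CPM in overexpression (1.58 ± 0.09, adjusted p = 6.23e-15), with controls of 27.5, 25.3 and 21.2 CPM between. AGO2, the slicing Argonaute, had 157 and 164 against 76.4, 76.3 and 72.5 CPM (1.10 ± 0.09, adjusted p = 1.79e-10), with controls of 132, 115 and 94.0 CPM. AGO1 and AGO4 differed by 0.61 ± 0.10 and 0.46 ± 0.07, whereas AGO3 did not pass (0.12, adjusted p = 0.231). LIMD1, a scaffold of the same complex, was lower, at -0.31 ± 0.08. AGO2 lies on chromosome 8, whose genes were shifted as a whole, as described further on. Among deadenylases and their partners 4 of 15 were higher and 7 lower (median -0.18). BTG1, an antiproliferative adaptor of CCR4-NOT, had 170.4 and 145 against 293, 273 and 275 CPM (-0.83 ± 0.07, adjusted p = 1.29e-11). TOB2 and the catalytic subunits CNOT7 and CNOT6 went the other way, by 0.45, 0.42 and 0.41.

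Genes of translation and respiration were higher in knockdown as groups. Of 79 tested nuclear-encoded subunits of the respiratory chain 64 were higher in knockdown and 0 were lower, with a median log2 difference of 0.46, against a median of -0.0013 over all genes. The count of lower members stood at 0 to 3 and that of higher members at 53 to 66 over the alternatives. All 5 complexes took part: 30 of 37 genes of complex I, which oxidises NADH, 3 of 4 of complex II, 8 of 9 of complex III, 9 of 11 of complex IV, which reduces oxygen, and 14 of 18 of the ATP synthase were higher. UQCR10, of complex III, had 120.0 and 113 CPM in knockdown and 54.2, 59.4 and 50.2 CPM in overexpression (1.10 ± 0.07, adjusted p = 9.36e-14). ATP5MC1, a subunit of the rotor ring of the ATP synthase, had 234 and 244 against 115, 133 and 113 CPM (0.99 ± 0.07), and NDUFA3, of complex I, 59.7 and 59.7 against 27.7, 30.9 and 29.5 CPM (1.03 ± 0.07). UQCRH, the hinge protein of complex III, differed by 0.79 ± 0.06. In UQCR10, ATP5MC1 and NDUFA3 the controls, with means of 81.5, 174 and 37.2 CPM, fell between the groups. Against the shared controls the group's median was 0.19 in knockdown and -0.25 in overexpression.

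Of 73 tested cytosolic ribosomal protein genes 65 were higher in knockdown and 0 lower (median 0.35), 37 of 43 in the large subunit and 27 of 29 in the small one. RPL36AL had 383 and 391 CPM in knockdown and 205, 197 and 168 CPM in overexpression (1.02 ± 0.06, adjusted p = 3.43e-14), RPL30 414 and 398 against 219, 214 and 199 CPM (0.95 ± 0.05), RPL37A 715 and 646 against 378, 417 and 393 CPM (0.78 ± 0.05) and RPL21 738 and 675 against 474, 484 and 446 CPM (0.59 ± 0.06). The groups did not overlap in 67 of the 73, while they did not overlap in 67.5% of all tested genes. Ribosomal protein genes have many processed pseudogenes, among which the authors' counting could have split reads. In the mitochondrial ribosome 40 of 76 tested genes were higher and 7 lower (median 0.21). The large subunit had 28 of 47 higher and 3 lower, and the small one 12 of 29 higher and 4 lower. MRPL14, MRPL27, MRPL19 and MRPS36 led with 0.69, 0.66, 0.65 and 0.66. Transcripts of these 3 groups are short, and the shortest of 5 equal classes of exonic length had the highest median of those classes (0.08). After the median of each exonic length class was removed, 47 cytosolic ribosomal, 34 mitochondrial ribosomal and 53 respiratory chain genes were higher, against 1, 13 and 2 that were lower.

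**Figure D3:**
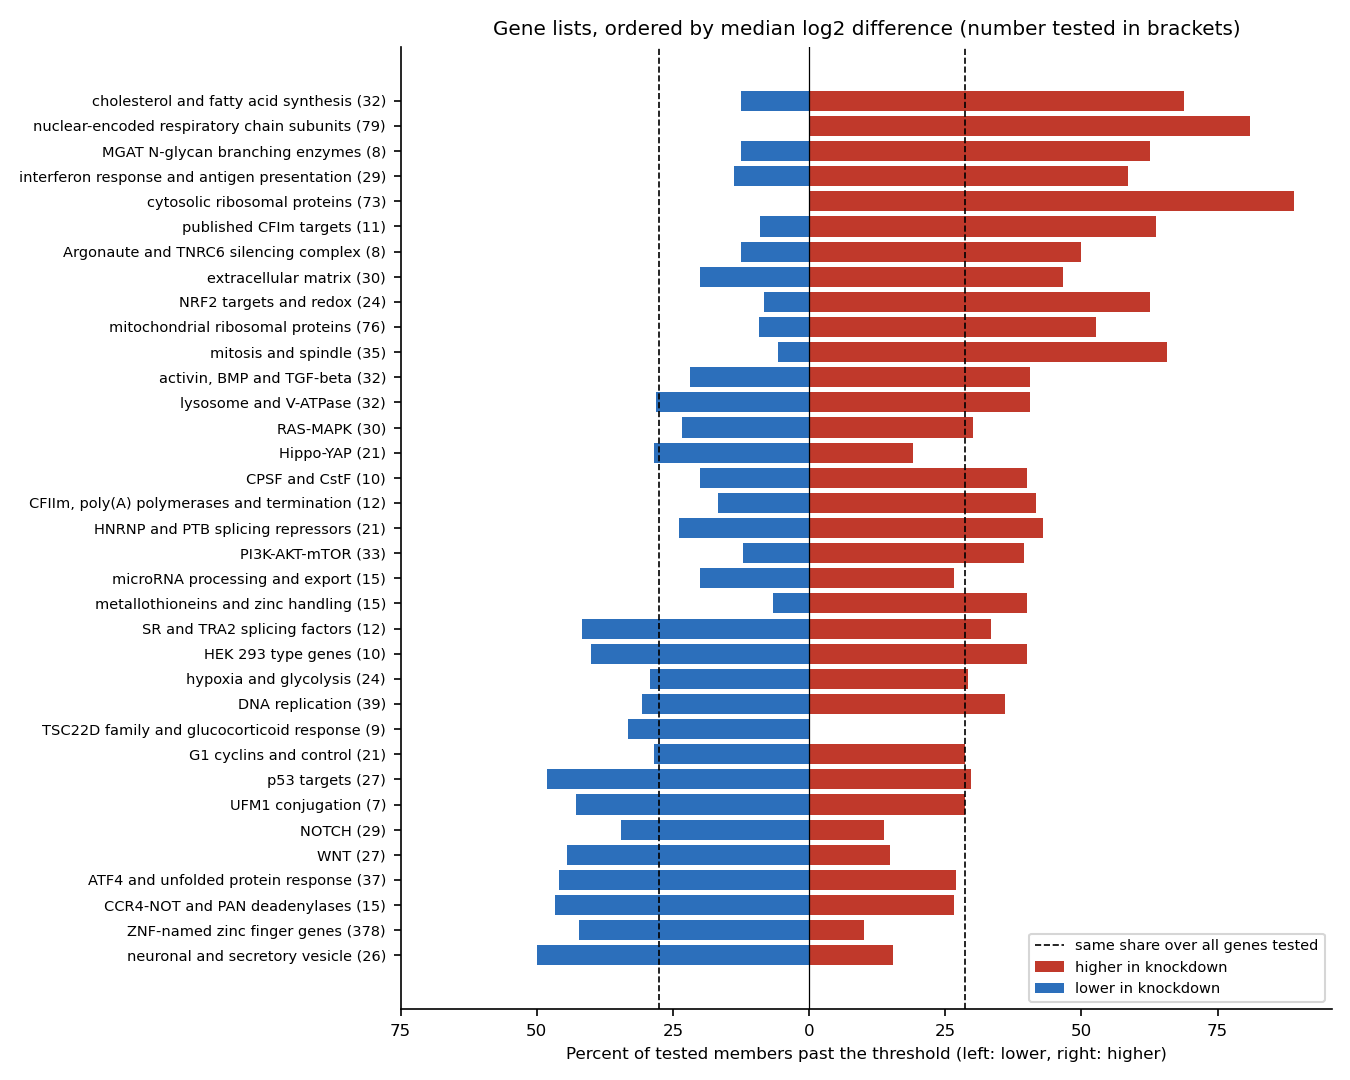
Share of the tested members of each gene list (7 or more tested) that were higher (right) or lower (left) in CFIm25 knockdown than in overexpression, in percent. Lists are ordered by median log2 difference, and dashed lines give the shares over all genes, 28.6% and 27.5%. Cytosolic ribosomal protein and respiratory chain genes have bars to the right only.

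Promoters of several groups, here and below, were searched for motifs their genes are known to carry. The windows ran from 250 bases before to 50 bases after the RefSeq start (GRCh38.p14). Since the motifs were picked for these groups, a share above that of all windows was foreseeable and shows nothing about the differences. Of the tested genes 9772 matched a window. The motif of YY1, AAGATGGC on either strand, was found in 11 of 65 respiratory chain windows (16.9%) and in 20 of 67 mitochondrial ribosomal windows (29.9%), against 5.27% of all. The core of NRF1, GCGCATGCG, was found in 10 of the 65 (15.4%) and in 3.46% of all. Of the 20 mitochondrial ribosomal genes with the YY1 motif 9 were higher in knockdown and 1 was lower. A match describes the window and shows no binding, and the part of these motifs in the differences was not tested. The window of NDUFA3 is printed as an example, with the YY1 letters in capitals, which lie 21 bases after the start.
NDUFA3, chr19:54102605-54102904, plus strand: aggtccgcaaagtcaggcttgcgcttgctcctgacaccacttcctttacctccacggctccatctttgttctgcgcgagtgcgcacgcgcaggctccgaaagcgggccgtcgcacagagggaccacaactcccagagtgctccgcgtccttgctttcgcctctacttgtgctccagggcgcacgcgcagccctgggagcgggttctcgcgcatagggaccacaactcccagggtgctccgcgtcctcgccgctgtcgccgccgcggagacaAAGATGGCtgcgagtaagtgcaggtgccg

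Cholesterol and fatty acid synthesis formed the list with the highest median, 0.48, with 22 of 32 tested genes higher in knockdown and 4 lower. Many are targets of the SREBP transcription factors, which are activated when sterols are scarce. MSMO1, a demethylase of the sterol pathway, had 41.5 and 42.6 CPM in knockdown and 16.2, 16.2 and 10.9 CPM in overexpression (1.53 ± 0.10, adjusted p = 1.16e-13). HMGCS1, which makes HMG-CoA, had 116 and 117 against 57.0, 57.6 and 43.4 CPM (1.14 ± 0.08), and FDFT1, squalene synthase, 25.8 and 26.7 against 11.2, 14.8 and 10.6 CPM (1.11 ± 0.10). The groups did not overlap in any of these genes. INSIG1, the sterol-regulated retention factor of SREBP and one of the 12 largest, had 198 and 232 CPM in knockdown and 66.9, 81.1 and 50.4 CPM in overexpression, and 125, 126 and 111 CPM in control (1.70 ± 0.13, adjusted p = 1.39e-07). Against the shared controls, 1 of the 32 was higher and 24 were lower in overexpression, while 7 were higher and 13 lower in knockdown. The NF-Y motif GATTGGC, on either strand, was found in 11 of 25 windows of this list (44%) and in 9.91% of all, and TCACNCCAC, a sterol regulatory element, in 1 of 25 and in 1.13% of all. The HMGCS1 window is printed with the NF-Y letters in capitals.
HMGCS1, chr5:43313363-43313662, minus strand: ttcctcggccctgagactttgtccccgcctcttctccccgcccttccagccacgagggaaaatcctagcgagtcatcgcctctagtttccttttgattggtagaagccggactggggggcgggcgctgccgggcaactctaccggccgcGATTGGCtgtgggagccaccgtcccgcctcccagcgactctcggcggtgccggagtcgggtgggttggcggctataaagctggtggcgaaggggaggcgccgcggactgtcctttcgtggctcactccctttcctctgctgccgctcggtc

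Of 35 tested genes of mitosis and the spindle 23 were higher in knockdown and 2 lower (median 0.21). KIF20A, a kinesin of cytokinesis, had 242 and 265 CPM in knockdown and 147, 158 and 134 CPM in overexpression (0.79 ± 0.06, adjusted p = 2.17e-12). BUB1, a kinase of the spindle checkpoint, had 185 and 194 against 123, 123 and 116 CPM (0.66 ± 0.05), BIRC5, survivin, 21.02 and 19.9 against 9.91, 10.9 and 10.7 CPM (0.96 ± 0.10), and the kinase AURKA 213 and 227 against 161, 162 and 144 CPM (0.50 ± 0.06). The controls of KIF20A and BUB1, with means of 257 and 231 CPM, were not below the knockdown mean, and the overexpression libraries stood apart below both. In DNA replication 14 of 39 genes were higher and 12 lower (median -0.03), with the helicase subunit MCM5 at 0.63 and the flap endonuclease FEN1 at 0.89 on one side and the origin recognition subunit ORC4 at -0.61 and the clamp loader subunit RFC4 at -0.52 on the other. The count of lower replication genes fell to 7 without knockdown replicate 1 and to 6 without knockdown replicate 2. Of 21 G1 control genes 6 were higher and 6 lower (median -0.08). CCND2, a D-type cyclin, had 82.1 and 87.8 CPM in knockdown and 32.9, 33.9 and 36.1 CPM in overexpression (1.31 ± 0.07, adjusted p = 2.50e-16), the latter like its control mean of 31.0 CPM. E2F2 and E2F3 were lower in knockdown (-0.58 and -0.65) and E2F5 was higher (0.66). The cell cycle homology region TTTGAA, an element of late cell cycle promoters, was found on either strand in 18 of 30 windows of the mitosis list (60%) and in 9.45% of all. The window of PLK1, a mitotic kinase with a log2 difference of 0.44 ± 0.06, shows it in capitals. PLK1 was chosen after its values were seen.
PLK1, chr16:23678639-23678938, plus strand: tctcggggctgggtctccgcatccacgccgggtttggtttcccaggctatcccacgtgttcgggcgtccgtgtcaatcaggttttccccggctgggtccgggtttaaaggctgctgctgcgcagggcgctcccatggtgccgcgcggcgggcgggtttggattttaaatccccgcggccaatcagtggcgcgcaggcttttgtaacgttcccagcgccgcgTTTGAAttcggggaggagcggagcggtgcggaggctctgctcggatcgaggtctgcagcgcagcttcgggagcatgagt

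Interferon response and antigen presentation genes were higher in knockdown in 17 of 29 and lower in 4 (median 0.35). UBE2L6, the conjugating enzyme of ISG15, had 40.1 and 42.4 CPM in knockdown and 22.05, 25.7 and 25.3 CPM in overexpression (0.77 ± 0.08, adjusted p = 5.41e-10), above control in both, where the mean was 16.0 CPM. The membrane protein IFITM1 had 8.26 and 8.33 against 4.55, 3.90 and 3.42 CPM (1.05 ± 0.14). IFI44L was low throughout, with 110 reads over the knockdown libraries and 10 over the overexpression libraries, a pooled ratio of 11.1 (95% counting interval 5.79 to 23.7). Interferon-stimulated response elements, searched on either strand, were found in 16 of 24 windows of this list (66.7%) and in 2.55% of all. The window of IFI44L holds 2 of them, in capitals, which 0.338% of all windows equal or exceed.
IFI44L, chr1:78620198-78620497, plus strand: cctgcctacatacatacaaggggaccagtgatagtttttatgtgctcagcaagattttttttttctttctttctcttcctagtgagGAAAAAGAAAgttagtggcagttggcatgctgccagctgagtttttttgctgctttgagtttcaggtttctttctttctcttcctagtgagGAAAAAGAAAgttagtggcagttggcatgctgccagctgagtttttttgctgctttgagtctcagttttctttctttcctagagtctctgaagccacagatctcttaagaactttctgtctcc

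Metallothioneins, small proteins that bind zinc and copper, belong to a zinc handling list of which 6 of 15 tested genes were higher in knockdown and 1 lower (median 0.03). MT2A had 19.7 and 18.7 CPM in knockdown, 4.08, 4.75 and 4.52 CPM in overexpression and 7.94, 7.21 and 7.38 CPM in control (2.11 ± 0.11, adjusted p = 4.37e-16). The 3 groups did not overlap. MT1X had 3.36 and 2.84 against 0.257, 0.509 and 0.348 CPM, or 169 reads against 21 in all, a ratio of 8.09 (95% counting interval 5.13 to 13.4), and MT1F differed by 1.42 ± 0.25. Metallothionein genes are near-identical copies of each other, so reads among them may be misassigned. The zinc exporter SLC30A7 differed by 0.70 ± 0.09. The core of the metal response element, TGCNCNC on either strand, is short and was found in 7 of 13 windows of this list (53.8%), below the 63.7% of all windows. The MT2A window holds 8 of them, in capitals, which 0.0716% of all windows equal or exceed.
MT2A, chr16:56608334-56608633, plus strand: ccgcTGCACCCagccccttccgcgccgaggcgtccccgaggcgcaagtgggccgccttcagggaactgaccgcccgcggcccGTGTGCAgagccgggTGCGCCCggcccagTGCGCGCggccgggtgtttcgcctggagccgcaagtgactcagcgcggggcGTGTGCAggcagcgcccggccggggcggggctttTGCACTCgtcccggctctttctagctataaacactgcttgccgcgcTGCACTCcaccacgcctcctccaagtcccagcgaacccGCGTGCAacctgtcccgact

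Genes of the NRF2 oxidative stress response were higher in knockdown in 15 of 24 and lower in 2 (median 0.22). SOD1, superoxide dismutase, had 529.7 and 545 CPM in knockdown and 318, 326 and 294 CPM in overexpression (0.78 ± 0.05, adjusted p = 4.11e-13), HMOX1, heme oxygenase, 20.7 and 21.1 against 7.85, 9.84 and 11.7 CPM (1.11 ± 0.11), TALDO1 0.39 and TXN, thioredoxin, 0.42 on the log2 scale. The cystine transporter subunit SLC7A11, which is on this list and on the amino acid stress list and was chosen after its values were seen, had 222 and 136 CPM in knockdown and 612, 468 and 484 CPM in overexpression (-1.55 ± 0.19, adjusted p = 4.84e-05). Its partner SLC3A2, of the second list, had 127 and 108 against 225, 223 and 233 CPM (-0.95 ± 0.06, adjusted p = 1.53e-13). ATF4 is the transcription factor that amino acid shortage and endoplasmic reticulum stress induce. In the list of its targets and of the unfolded protein response 10 of 37 genes were higher and 17 lower (median -0.17). The cationic amino acid transporter SLC7A1 had 598 and 528 against 993, 924 and 969 CPM (-0.77 ± 0.06), and PSAT1, of serine synthesis, 192 and 155 against 287, 277 and 312 CPM (-0.76 ± 0.07). HSPA5, the main chaperone of the endoplasmic reticulum, was higher, with 593 and 621 against 385, 373 and 341 CPM (0.73 ± 0.05), while the controls were above both groups, at 858, 872 and 911 CPM.

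Of 27 p53 target genes 8 were higher in knockdown and 13 lower (median -0.10). PHLDA3, a repressor of AKT, had 19.2 and 18.7 against 36.5, 41.3 and 38.4 CPM (-1.03 ± 0.08, adjusted p = 5.66e-12), XPC, a DNA damage sensor, differed by -0.44 ± 0.06, and SESN2, a leucine and stress sensor, by -0.84 ± 0.10. TNFRSF10A, a TRAIL death receptor, had 52 reads over the knockdown libraries and 0 in the overexpression libraries. With a floor of 3 reads over the group it was at least 17.4-fold higher in knockdown, and the lower limit of the 95% counting interval of the ratio was 13.7. The count of higher p53 targets fell to 4 when genes of chromosomes 8 and 21 were left out, as it did when neighbour medians were removed. Hypoxia and glycolysis genes were 7 higher and 7 lower of 24 (median 0.00), with EPAS1, a hypoxia-inducible factor, at 0.94, PGAM1 at 0.72, BNIP3L at 0.63 and PFKL at 0.45. The PFKL value fell to 0.04 (adjusted p = 0.621) after removal of neighbour medians.

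Signalling pathways had members of either direction. The share of tested members past the threshold ran from 47.6% in the Hippo list to 62.5% for activin, BMP and TGF-beta, around the 56.1% of all genes. It was 53.3% for the RAS to ERK list and 51.5% for the PI3K, AKT and mTOR list. In the RAS to ERK cascade 9 of 30 tested genes were higher in knockdown and 7 lower (median 0.11). The exchange factor SOS1 had 156 and 156 CPM in knockdown and 285, 245 and 257 CPM in overexpression (-0.75 ± 0.06, adjusted p = 2.54e-11). DUSP6 and SPRY2, feedback inhibitors that ERK induces, were lower, by -1.14 ± 0.12 and -0.54 ± 0.07. In the PI3K, AKT and mTOR list 13 of 33 were higher and 4 lower (median 0.07). TSC1, an inhibitor of mTOR signalling, was higher, with 22.7 and 24.7 against 15.2, 14.9 and 14.7 CPM (0.67 ± 0.09), and the insulin receptor substrate IRS2 and the transcription factor FOXO1 were lower (-0.72 ± 0.08 and -0.63 ± 0.07).

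In the WNT list 4 of 27 were higher and 12 lower (median -0.17). The ligands WNT5A and WNT3 were lower in knockdown, WNT5A with 135 and 127 against 282, 235 and 248 CPM (-0.96 ± 0.07, adjusted p = 3.06e-13) and WNT3 with 47.9 and 42.3 against 73.7, 72.6 and 66.1 CPM (-0.66 ± 0.07). LGR5, an R-spondin receptor, had 50.7 and 54.1 against 86.5, 75.6 and 87.8 CPM (-0.67 ± 0.07), and the receptor FZD3 was higher at 0.62 ± 0.07. In these 3 lower genes the knockdown values were near the control means of 143, 45.4 and 50.6 CPM. In the NOTCH list 4 of 29 were higher and 10 lower (median -0.11). The ligands JAG1 and DLL4 were lower, JAG1 with 90.0 and 82.8 against 153, 147 and 155 CPM (-0.82 ± 0.06, adjusted p = 3.59e-12) and DLL4 with 2.36 and 2.10 against 4.46, 5.88 and 5.45 CPM (-1.24 ± 0.18). PSENEN and APH1B, subunits of gamma-secretase, which releases the NOTCH intracellular domain, were higher (0.63 ± 0.07 and 0.62 ± 0.12). Without knockdown replicate 2 the NOTCH counts fell to 2 higher and 6 lower.

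For activin, BMP and TGF-beta 13 of 32 were higher and 7 lower (median 0.15), with the higher count at 7 without knockdown replicate 2. ACVR2B, an activin receptor, had 35.7 and 40.5 against 16.0, 17.8 and 17.6 CPM (1.162 ± 0.10, adjusted p = 1.94e-10), the overexpression libraries being near the control mean of 17.6 CPM. The ligand TGFB2 had 3.04 and 2.76 against 7.64, 6.51 and 8.87 CPM (-1.41 ± 0.16), and ID3, a BMP target, 1.998 and 2.40 against 5.88, 5.71 and 5.62 CPM (-1.36 ± 0.16). SMURF2, a ubiquitin ligase of the pathway, differed by 0.44 ± 0.06. In the Hippo list 4 of 21 were higher and 6 lower (median 0.11). The transcription factor TEAD2 was higher (0.70 ± 0.07), as was the kinase LATS2 (0.40 ± 0.08), and the LATS inhibitor AJUBA and the YAP target CCN1 were lower (-0.85 ± 0.09 and -0.67 ± 0.12).

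Splicing factors held members of either direction. Of 12 SR and TRA2 factors 4 were higher and 5 lower (median 0.02). SRSF7 had 473 and 463 CPM in knockdown and 766, 691 and 742 CPM in overexpression (-0.65 ± 0.05, adjusted p = 1.25e-11), SRSF12 28.0 and 25.6 against 57.8, 51.3 and 51.1 CPM (-1.002 ± 0.08) and SRSF6 104 and 97.0 against 162, 150.3 and 177 CPM (-0.70 ± 0.06), and TRA2A differed by -0.59 ± 0.07. Their control means of 612, 54.7, 138 and 56.5 CPM were above both knockdown libraries, as was every single control library. The count of higher SR members was 2 in place of 4 when knockdown replicate 1 or 2 or overexpression replicate 2 or 3 was left out. Of 21 HNRNP and PTB genes 9 were higher and 5 lower (median 0.08), HNRNPLL being the lowest. HNRNPH3 had 423 and 426 against 276, 235 and 246 CPM (0.75 ± 0.06), SYNCRIP 780.1 and 804 against 539, 468 and 492 CPM (0.67 ± 0.06) and HNRNPAB 572 and 588 against 406, 369 and 368 CPM (0.61 ± 0.05).

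Genes named ZNF, most of which encode C2H2 zinc finger proteins that bind DNA, formed the largest list and leaned towards overexpression: 160 of 378 were lower in knockdown and 38 higher (median -0.23). On chromosome 19, which holds large clusters of them, 87 of 182 were lower and 14 higher (median -0.34), while 685 other genes of that chromosome had 193 higher and 144 lower (median 0.03). On the remaining chromosomes 73 of 196 were lower and 24 higher (median -0.15). ZNF711 had 671 and 585 CPM in knockdown and 1500.2, 1324 and 1342 CPM in overexpression (-1.15 ± 0.07, adjusted p = 1.21e-13), ZNF558 68.5 and 59.4 against 144, 135 and 140.4 CPM (-1.13 ± 0.07), and ZNF83 19.1 and 15.7 against 47.2, 39.4 and 43.0 CPM (-1.33 ± 0.09). Control means were 672, 75.4 and 9.94 CPM. ZNF780A went the other way, with 41.0 and 38.1 against 17.6, 14.8 and 16.2 CPM (1.28 ± 0.08). Zinc finger genes of 1 cluster are similar in sequence, and reads may be split among them.

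Neuronal and secretory vesicle genes were 4 higher and 13 lower of 26, the lowest median of the lists (-0.43). SYP, synaptophysin of the vesicle membrane, had 15.4 and 13.5 CPM in knockdown and 31.1, 31.6 and 31.6 CPM in overexpression (-1.13 ± 0.10, adjusted p = 3.32e-11), with a control mean of 10.5 CPM. MAP2, which binds dendritic microtubules, had 3.50 and 3.68 against 6.78, 7.18 and 7.65 CPM (-0.99 ± 0.13), and SCG3, a granin of secretory granules, 3.41 and 3.41 against 7.08, 5.71 and 8.87 CPM (-1.08 ± 0.16). STMN3, a microtubule regulator, differed by -0.57 ± 0.08.

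Of 30 extracellular matrix genes 14 were higher and 6 lower (median 0.26). SPARC, a collagen-binding matricellular protein, had 201 and 205 CPM in knockdown, 74.9, 77.2 and 68.4 CPM in overexpression and 209.8, 231 and 223 CPM in control (1.47 ± 0.06, adjusted p = 1.18e-18), and the laminin chains LAMA4 and LAMC1 and the basement membrane collagen COL4A1 were higher by 1.17, 0.68 and 0.75. Of 32 lysosome and V-ATPase genes 13 were higher and 9 lower (median 0.11). Of the 14 V-ATPase subunits among them, parts of the pump that acidifies the lysosome, 9 were higher and 1 was lower. ATP6V0E1 had 21.7 and 24.1 against 7.76, 9.39 and 8.75 CPM (1.42 ± 0.10), ATP6V1F differed by 0.72 ± 0.07 and the protease CTSB by 0.59 ± 0.06.

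The smaller lists had single members with large differences. MGAT4A, which adds a branch to N-glycans, had 17.3 and 16.9 CPM in knockdown and 7.51, 5.26 and 6.202 CPM in overexpression (1.42 ± 0.13, adjusted p = 1.20e-10), and 5 of 8 tested N-glycan branching genes were higher and 1 lower (median 0.36), MGAT1, MGAT5 and MAN1A2 by 0.45, 0.44 and 0.40. UFM1, a ubiquitin-like modifier of the endoplasmic reticulum, had 31.1 and 24.5 against 12.8, 12.8 and 11.9 CPM (1.14 ± 0.11, adjusted p = 3.07e-10), while in its conjugation pathway 2 of 7 were higher and 3 lower (median -0.10), including the ligase UFL1 at -0.30 and ODR4 at -0.27 on the lower side and the conjugating enzyme UFC1 at 0.49 on the higher. UFC1 fell to 0.29 (adjusted p = 0.0613) with length medians removed, and ODR4 missed the threshold without knockdown replicate 2 (-0.21, adjusted p = 0.0989). TENM1, a teneurin of cell adhesion, had 35.8 and 37.0 against 14.5, 15.1 and 14.4 CPM (1.31 ± 0.09, adjusted p = 5.84e-13), both above the control mean of 8.93 CPM, and TENM3 differed by -0.57 ± 0.17, which fell short of the threshold after removal of neighbour medians (-0.385, adjusted p = 0.0598). ADGRL3 and TENM4 did not pass (-0.11 and -0.40), so that 1 of 5 teneurin and latrophilin genes was higher and 1 lower (median -0.11). TSC22D3, the glucocorticoid-induced leucine zipper, had 1402 and 1189 against 1912, 1844 and 1969.7 CPM (-0.56 ± 0.06, adjusted p = 2.54e-09). Its controls, at 408, 455 and 422 CPM, were below both groups. TSC22D1 and KLF9 were also lower in knockdown (-0.53 and -0.34), and ZBTB16 did not pass (0.28). No member of that list of 9 was higher (0 of 9, 3 lower, median -0.07).

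Markers of cell identity were compared between the groups, and their part in the differences of other genes was not tested. All 11 genes of the HEK 293 list that are in the table had reads in every library. SALL4 was close to absent, with 1 and 1 reads in knockdown and 3, 2 and 5 in overexpression. The summed level of the 11 genes was 1824 to 1861 CPM in knockdown and 2065 to 2241 CPM in overexpression. Of 10 tested, 4 were higher and 4 lower (median 0.00). VIM, vimentin, had 496 and 484 CPM in knockdown and 811, 911 and 876 CPM in overexpression (-0.82 ± 0.06, adjusted p = 1.64e-13). CDH2 was lower (-0.31) and NEFL higher (0.34), although NEFL, on chromosome 8, fell to 0.05 (adjusted p = 0.582) after removal of neighbour medians. The keratinocyte and HeLa type list summed to 693 to 717 CPM in knockdown and 667 to 696 CPM in overexpression. Most of that sum came from EPCAM and KRT19. EPCAM had 426 and 405 CPM in knockdown and 389, 366.5 and 367 CPM in overexpression. KRT19 had 247 and 243.5 against 242, 280 and 260 CPM. Within the same list KRT14 and KRT6A were at 0, and KRT5 and TP63 had no more than 1 read in any of the 5 libraries. Of its 5 tested genes 2 were higher, CDH1 (0.82 ± 0.14) and EPCAM (0.15 ± 0.05), and 1 was lower, KRT17 (-1.03 ± 0.15). KRT19, at -0.09, did not pass. The EPCAM value missed the threshold under 5 alternatives, with adjusted p from 0.0517 to 0.141.

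Mesenchymal markers summed to 64.2 to 66.6 CPM in knockdown and 72.7 to 83.1 CPM in overexpression. Most of that sum came from COL1A1, a collagen chain whose groups overlapped. It had 49.85 and 54.92 CPM in knockdown and 45.94, 52.95 and 53.38 CPM in overexpression. Within the same list DCN, PDGFRA and COL1A2 were at 0 in all 5 libraries. Of 6 tested, 2 were higher and 1 lower (median 0.15). ACTA2, smooth muscle actin, had 9.22 and 6.86 CPM in knockdown and 24.0, 27.4 and 27.1 CPM in overexpression (-1.72 ± 0.10, adjusted p = 1.91e-14), with controls of 24.7, 27.2 and 26.4 CPM. LUM had 109 reads in knockdown and 6 in overexpression, a ratio of 18.3 (95% counting interval 8.13 to 50.9). COL3A1 was under 1 CPM in each of the 5 libraries (1.28 ± 0.45, adjusted p = 0.0165) and missed the threshold under 4 alternatives, with adjusted p from 0.0504 to 0.0762. Blood cell markers summed to 1.32 and 1.98 CPM in knockdown and 0.729 to 1.74 CPM in overexpression, with PTPRC, GATA1, HBA1 and HBB at 0. Of 2 tested, CD74 was higher (1.31 ± 0.35, and 0.92 with an adjusted p of 0.117 without knockdown replicate 2) and CD14 did not pass (-0.52).

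The same contrast exists for CFIm68, the partner subunit, in 6 other libraries of the series (3 knockdown, 3 overexpression), which share no library with the CFIm25 contrast. There 8113 of the 12080 tested genes passed the threshold, 4066 higher and 4047 lower. Both contrasts called 4895 genes. Of these, 1832 were higher in both knockdowns, 53.01% of the genes higher for CFIm25 and 45.1% of those higher for CFIm68, and 1729 were lower in both, 52.0% and 42.7%. The other 1334 (27.3% of those called in both) went in opposite directions. Over all tested genes 28.6% were higher and 27.5% lower for CFIm25, the shares to set beside the 45.1% and 42.7%. With 56.1% of all genes called for CFIm25, many genes would be called in both contrasts without any relation between them. Across the 12080 genes the log2 differences correlated at r = 0.286 (Spearman's rho 0.342), given as a description.

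The difference between the contrasts was tested for each gene as an interaction, CFIm25 difference minus CFIm68 difference, and 6365 genes (52.7%) passed, 3291 with a higher and 3074 with a lower value for CFIm25, of which 1260 differed by 2-fold or more. VMA21 and HNRNPLL moved the same way in both, VMA21 by 1.78 for CFIm25 and 2.83 for CFIm68, and HNRNPLL by -2.01 and -2.39, and each still passed the interaction test (-1.06 and 0.38). Of the genes that passed the interaction test and averaged 5 CPM or more in the 11 libraries of both contrasts, the 5 highest values were those of PNMA8A, a gag-derived paraneoplastic antigen (9.10), CD99 (8.41), SERPINB9, the granzyme B inhibitor (6.53), CPSF6 (5.21) and IFI16, a sensor of nuclear DNA (4.84). PNMA8A had 6.13 and 6.08 CPM in CFIm25 knockdown and 4 reads in all in the CFIm25 overexpression libraries, a ratio of 84.97 (95% counting interval 32.9 to 314), but 5.52, 5.10 and 6.23 CPM in CFIm68 knockdown and 38.9, 39.1 and 34.9 CPM in CFIm68 overexpression. SERPINB9 had 165 reads in CFIm25 knockdown and 8 in CFIm25 overexpression, a ratio of 20.7 (95% counting interval 10.3 to 48.8), and went the opposite way for CFIm68 (-2.14).

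The 5 lowest values were those of SLFN12 (-9.44), ZNF83 (-8.01), PDGFD, a platelet-derived growth factor (-7.52), ZNF667 (-6.44) and RAB17, a small GTPase of epithelial transport (-6.15). Each had at most 9 reads in any CFIm68 overexpression library. SLFN12 had 10.4 and 8.33 CPM in CFIm25 knockdown and 16.5, 15.7 and 16.6 CPM in CFIm25 overexpression, but 1 read in all under CFIm68 overexpression, so its fitted interaction rests on that read. PDGFD had 40.4 and 40.6 and 66.6, 58.6 and 56.6 CPM in the CFIm25 groups and 0.325, 0.223 and 0.565 CPM under CFIm68 overexpression. RAB17 did not differ past the threshold between the CFIm25 groups (6.95 and 6.71 against 6.48, 6.90 and 6.90 CPM, log2 difference 0.02 ± 0.13, a value whose sign changed between settings).

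**Figure D4:**
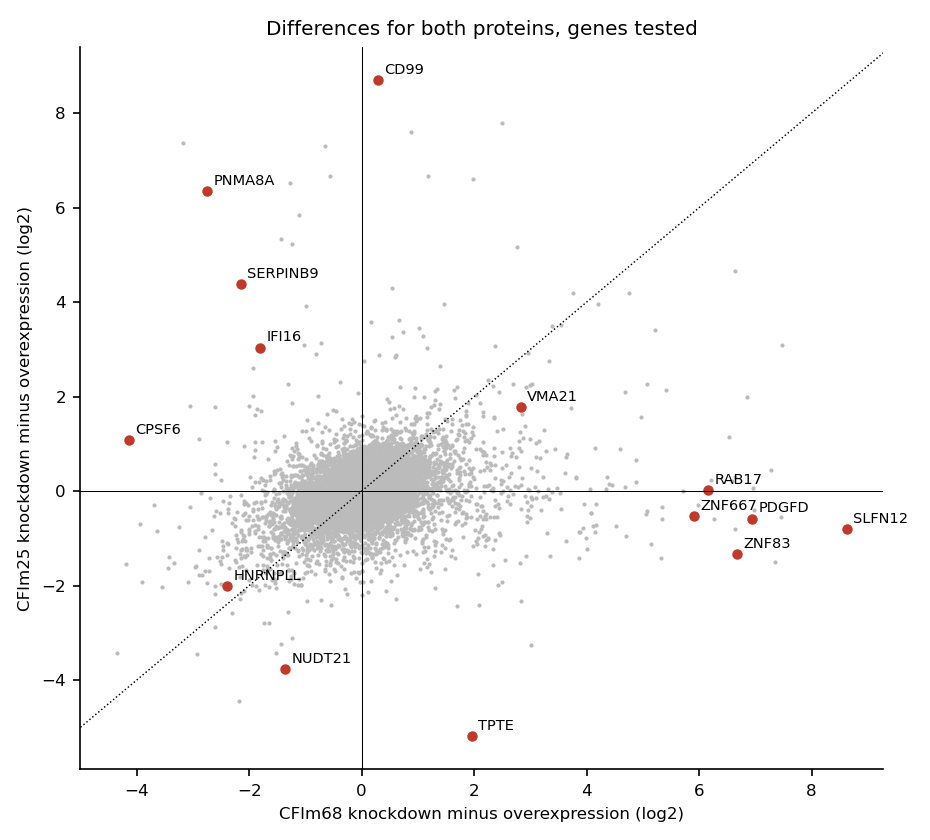
Log2 difference between knockdown and overexpression for CFIm68 (horizontal axis) and CFIm25 (vertical axis). Grey points are the 12080 tested genes, red points are named genes and the dotted line marks equal differences. CD99, PNMA8A and SERPINB9 lie high on the vertical axis, and SLFN12, PDGFD, ZNF83, ZNF667 and RAB17 lie far right with CFIm25 differences of 0.02 or below.

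Differences were not spread evenly over the chromosomes. On chromosome 8, 208 of 416 tested genes were higher in knockdown and 47 lower (median 0.23), and on chromosome 21, 58 of 102 were higher and 7 lower (median 0.31). Chromosomes 3 and 18 had medians of -0.11 and -0.12. Of 244 windows of 50 neighbouring genes 17 had a median beyond 0.2 in either direction. The highest, 0.40, was on chromosome X from 304529 to 20141844 (hg38), a window that holds CD99 and TMSB4X, and 5 of the 17 were on chromosome 8. Against the shared controls the median of chromosome 8 was 0.06 in knockdown and -0.21 in overexpression, and that of chromosome 21 was 0.16 and -0.23. Copy number was not measured, and its part in these shifts was not tested. After the median of neighbouring genes was removed 6484 genes passed, of which 5792 were among the 6779.

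**Figure D5:**
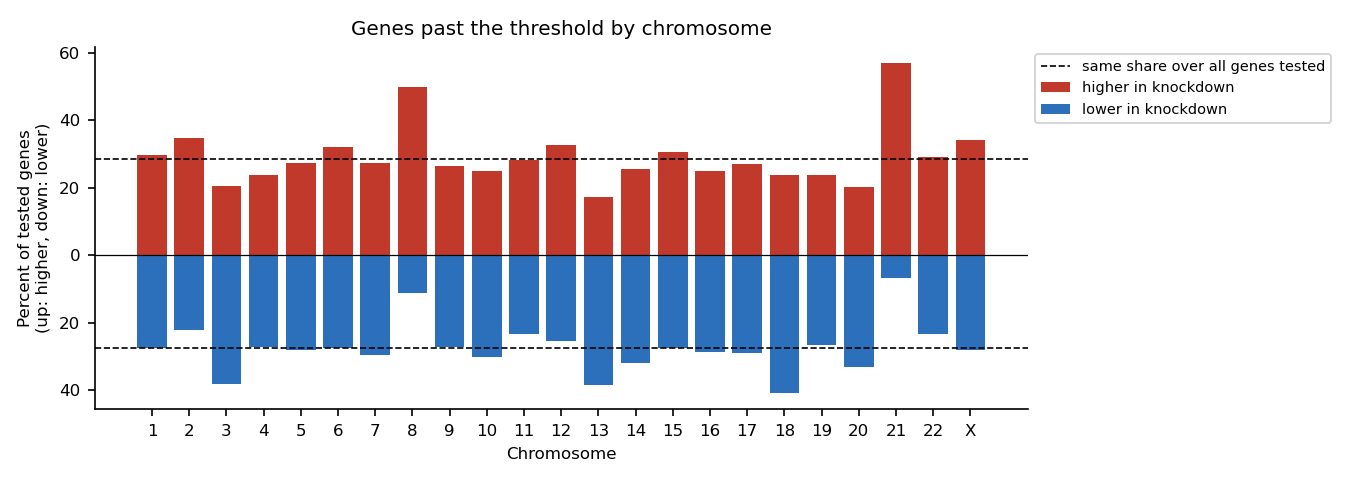
Percent of tested genes on each chromosome that were higher (up) or lower (down) in CFIm25 knockdown than in CFIm25 overexpression. Dashed lines give the shares over all genes, 28.6% and 27.5%. Chromosomes 8 and 21 have the largest shares of genes higher in knockdown, 208 of 416 and 58 of 102.

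Other properties of the genes followed the differences weakly. Spearman's rho across genes with the log2 difference was -0.077 for exonic length, -0.0089 for GC content, 0.045 for the number of annotated 3′ ends and 0.094 for the mean level. In the lowest of 5 equal classes of mean level 36.4% of genes passed the threshold, and in the highest 65.0% did.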

How the data were processed

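The authors deposited unnormalized counts for each gene and library, from stranded mRNA libraries (TruSeq kit, per the labels' protocols). The submitters' processing notes name cutadapt 1.16, STAR 2.7.1a and hg38. How reads were assigned to genes, with which annotation and strand option, was not given in the sources used here. Genes were filtered with edgeR 4.0.16 in R 4.3.3 (filterByExpr, minimum count 10, minimum total 15), scaled by TMM and fitted with a robust quasi-likelihood model over 14 libraries with a term for each group. Contrasts were tested with the quasi-likelihood F test and adjusted by Benjamini-Hochberg over the 12080 genes, with a threshold of 0.05. Standard errors are the log2 difference divided by the square root of F. Gene coordinates and lengths came from GENCODE 29.

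Counts were also simulated for the 14 libraries with 1 mean per gene shared by all groups. In CFIm25 knockdown alone 100 genes were changed 1.5-fold and 100 were changed 2-fold, drawn from genes above a minimum mean level. Of these, 94% and 100% were recovered, and 15 unchanged genes were called among the 11912 tested. Far more genes differed in the data, between all groups and at lower levels, so these shares do not carry over to the calls reported here. Counting intervals are exact at 95%, and they and the floor of 3 reads cover counting error only. Named genes are the 12 largest in each direction, members past the threshold of the polyadenylation and microRNA lists, the 4 smallest p of every other list and the 5 highest and lowest interactions. These comparisons and the 40 gene lists were chosen with earlier results of these data known. Alternatives used other scalings, filters, models (DESeq2 1.42.0, limma 3.58.1) and left-out libraries. A few of the named genes are not reported here.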

Additional observations from a re-analysis of the deposited data

Results flagged for a closer look

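The CFIm25 difference between knockdown and overexpression differed from the CFIm68 difference in 52.7% of tested genes (edgeR quasi-likelihood, adjusted over all genes). Listed here are 29 genes that passed, from the subunit genes, the 12 largest in each direction, the respiratory chain genes and the interaction extremes. The 5 highest and 5 lowest values were picked by this same test. Further genes named above passed too, among them CCND2 at -1.19 and PSMB2 at 1.02. Values are CFIm25 difference minus CFIm68 difference, log2. Among the complex's own genes NUDT21 had -2.40 and CPSF6 5.21. Of the genes higher in CFIm25 knockdown, CD99 had 8.41, STAT6 4.53, GSTP1 4.11, FLNC 2.25, RBP7 2.16, CNTN1 1.40, MT2A 0.81 and TMSB4X 0.48, whereas VMA21 had -1.06 because its CFIm68 difference was larger in the same direction. Of the genes lower in CFIm25 knockdown, TPTE had -7.14, CALCB -1.93, CDH23 -1.79 and PYROXD2 -1.58, while PRSS53 had 1.15 and HNRNPLL 0.38. The respiratory chain genes UQCRH, UQCR10, NDUFA3 and ATP5MC1 had 1.02, 0.51, 0.50 and 0.29. The 5 genes with the highest values include PNMA8A at 9.10, SERPINB9 at 6.53 and IFI16 at 4.84. The 5 with the lowest were SLFN12 at -9.44, ZNF83 at -8.01, PDGFD at -7.52, ZNF667 at -6.44 and RAB17 at -6.15. Fitted values of CD99, TPTE, PNMA8A, SERPINB9, SLFN12, ZNF83, PDGFD, ZNF667 and RAB17 rest on a group with few reads and are no bounds.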

How the results depend on the processing

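The number of genes past the threshold was 6779 and lay between 5141 and 6927 over the 16 alternatives, which shared 74.6% to 99.5% of those genes. Leaving out 1 library in turn gave 5141 to 6520, the lowest without knockdown replicate 2, and 5431 to 6293 for the interaction. A replicate block gave 6927, and 6628 for the interaction. The labels do not say that a shared replicate number pairs samples. Deviations of same-numbered libraries correlated at 0.115 and 0.0795, and 2 pairs cannot settle it, since the 2 knockdown libraries deviate as mirror images. Alternatives that remove exonic length medians, leave out chromosomes 8 and 21 or fit limma-trend were chosen after seeing the data. Values of named genes reversed in 8 cases. With neighbour medians removed CPSF1 had -0.1981, SCAF4 -0.0358, KRT19 0.02617 and RAB17 -0.2989. RAB17 also had -0.0003103 with only the groups compared in the fit, -0.03062 with length medians removed, -0.009063 without knockdown replicate 1 and -0.0376 without overexpression replicate 1. The cause was not tested. Across these settings RAB17 reached 0.03944 at most when a library was left out, without knockdown replicate 2. Besides that of SCAF4, calls of named genes were lost in 39 cases, and 2 were gained. Of the counts of list members, 59 moved by over 1.5 times, and neighbour removal changed the ZNF-named counts to 45 higher and 125 lower.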
